A study of Mus musculus with 3 samples.

Results

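The replication-dependent histone genes are the clustered gene copies that supply the histone proteins packed onto newly made DNA. Their members here were all gene symbols of the form H1f1 to H1f5, or H2ac, H2bc, H3c or H4c followed by a number, and 66 of the 33696 annotated genes matched: 5 for the linker histone H1, 18 for H2A, 18 for H2B, 12 for H3 and 13 for H4. They were followed in droplet-based single-cell RNA-seq of mouse bone marrow in 3 libraries. The homozygous library came from mice labelled homozygous knockout for Fabp4, which encodes a fatty acid-binding protein of adipocytes and macrophages, the heterozygous library from heterozygous knockout mice, and the wild-type library from mice without the knockout. Each library held pooled marrow cells of 2 mice, and age, sex, strain and the deleted part of Fabp4 were not given in the sources used here. There was 1 library per genotype, so differences between genotypes have no replicate check, and their intervals cover counting error only.

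Each unit counted is a UMI, a molecular tag that marks 1 captured RNA molecule. Cells entered when they held 500 or more UMIs from 200 or more genes and when mitochondrial genes gave less than 10% of them. This left the homozygous library 4318 cells and 46093025 UMIs, the heterozygous library 7957 cells and 72880881 UMIs, and the wild-type library 5604 cells and 67141826 UMIs. The median cell held 9036.5 UMIs in the homozygous, 7658 in the heterozygous and 10058 in the wild-type library. Fabp4 itself gave 5 UMIs in homozygous, 38 in heterozygous and 50 in wild-type kept cells, an order that matches the labels. Pairs of libraries shared 6 to 15 cell barcodes among kept cells.

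Histone mRNAs of this class are made as DNA is copied and are degraded when copying stops. They normally end in a short stem-loop that is bound by the protein SLBP, in place of the poly(A) tail of other mRNAs, and the stem-loop governs their processing, translation and decay. Linker histone H1 sits on the DNA between nucleosomes, and H2A, H2B, H3 and H4 form the nucleosome core. A minority of the genes are known to also give polyadenylated transcripts in cells that have stopped dividing, H1f2 and H2bc4 among them. The libraries were made with a 3′ kit that primes on poly(A), and the labels name polyA RNA as the molecule, so the counts are of histone RNA that was captured in that way, not of the whole histone mRNA pool. Many members are near-identical copies, so reads may be split between them or left out where they match several, and values of single members are uncertain for this reason; sums over a type are less so.

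The stem-loop is shown because it is what sets these transcripts apart from the mRNAs the kit was made for. In the GENCODE M21 transcript models (GRCm38), to which all 66 members matched by Ensembl identifier, 43 of 66 members carried it, against 57 of 141767 transcripts, or 0.0402%, over the whole annotation. A member counted when any of its transcripts held it, while the annotation was counted by transcript, so these shares have unlike units. The windows below belong to the most counted member of each type whose model holds one, read 5′ to 3′ as DNA letters with the stem-loop in capitals.
H1f2: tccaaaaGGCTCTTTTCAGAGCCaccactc
H2ac8: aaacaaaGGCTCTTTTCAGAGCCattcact
H2bc6: aaccaaaGGCTCTTTTCAGAGCCacccaac
H3c6: ccaaaacGGCTCTTTTAAGAGCCacctcca
H4c4: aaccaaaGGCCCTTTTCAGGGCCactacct
The version in H1f2, H2ac8 and H2bc6 was shared by 26 members of the H1, H2A, H2B and H3 types. The H4c4 version was found in 7 members, all H4, and the H3c6 version in 5 members of the H2B and H3 types. The model of H2bc4, the member with the most UMIs of all 66, is a 1156-base transcript of 2 exons at chr13:23684199-23692908 on the plus strand, and the stem-loop is not in it. The H1f2 model, a single exon of 1560 bases at chr13:23738808-23740367 on the plus strand, runs 840 bases past its stem-loop, and the H2ac8 model, a single exon at chr13:23570517-23571220 on the minus strand, runs 151 bases past it. Of the 66 members, 22 had a model that ended within 100 bases of the stem-loop, 21 a model that ran further and 23 a model without it. Some of these 23 models are short, such as 312 bases for H4c12, 381 for H2bc15 and 393 for H2ac22. Such models may stop before a stem-loop. The search also used a fixed pattern of letters, which a variant stem-loop would escape. This applies to longer models too, such as that of H2bc21 with 2620 bases. A missing match is thus not evidence that the transcript lacks a stem-loop. By those models 53 members lay on chromosome 13, 10 on chromosome 3, 2 on chromosome 11 and 1 on chromosome 6.

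Promoters are shown for the most counted members of the H1, H2A, H3 and H4 types, because the members were compared below as a set that moves with the cell cycle. The RefSeq promoter table (GRCm38.p6) held 57 of the 66 members, and H2bc4 was not matched. Each line gives 150 bases before to 50 bases after the annotated start, with capitals for the CCAAT box (CCAAT), the TATA box (TATAAA) and the octamer (ATTTGCAT), searched on both strands, with overlapping matches of different motifs counted for each.
H1f2: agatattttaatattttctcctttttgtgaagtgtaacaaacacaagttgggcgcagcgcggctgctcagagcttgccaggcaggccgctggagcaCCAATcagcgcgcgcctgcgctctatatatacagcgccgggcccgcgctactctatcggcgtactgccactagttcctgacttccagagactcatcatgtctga
H2ac8: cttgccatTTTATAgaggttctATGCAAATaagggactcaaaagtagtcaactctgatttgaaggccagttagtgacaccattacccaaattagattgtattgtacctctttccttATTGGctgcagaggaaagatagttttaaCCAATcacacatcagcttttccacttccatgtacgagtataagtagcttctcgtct
H3c6: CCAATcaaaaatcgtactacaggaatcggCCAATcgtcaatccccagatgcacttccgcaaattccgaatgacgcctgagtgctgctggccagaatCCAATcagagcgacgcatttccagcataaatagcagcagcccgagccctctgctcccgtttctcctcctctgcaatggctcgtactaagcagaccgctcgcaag
H4c4: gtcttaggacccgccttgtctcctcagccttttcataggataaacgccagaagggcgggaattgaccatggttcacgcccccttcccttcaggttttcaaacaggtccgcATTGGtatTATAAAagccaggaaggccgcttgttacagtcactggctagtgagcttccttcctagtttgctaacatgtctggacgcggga
These windows lie at chr13:23738657-23738856 on the plus strand for H1f2, chr13:23571171-23571370 on the minus strand for H2ac8, chr13:23562336-23562535 on the minus strand for H3c6 and chr13:23581418-23581617 on the plus strand for H4c4. Over windows of 300 bases, CCAAT was in 49 of 57 members (86.0%), against 37.4% of 32851 promoters, and in all members of the H1, H2A, H2B and H3 types matched, but in 3 of 11 H4 members. TATAAA was in 34 of 57 members (59.6%), against 13.6% of all promoters. The octamer was in 13 of 57 members (22.8%), 6 of H2A and 7 of H2B, against 1.74% of all promoters. A member counted when any of its windows matched, while the background was counted by promoter, so these shares have unlike units. These matches describe letters and are not evidence that a factor bound there.

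Member levels were read as CPM, the count divided by all UMIs and scaled to a fixed total, over the summed cells of a library. A 3′ kit counts 1 end per molecule, so CPM was not divided by length. The 66 members summed to 3302 CPM in homozygous, 2364 in heterozygous and 1969 in wild-type cells, or 0.330%, 0.236% and 0.197% of all UMIs. Of the members, 60 had 200 or more UMIs over the 3 libraries, 6 had fewer, and H2ac1 and H2bc1 among those 6 had none. H1 genes gave 33.8% of the members' UMIs, H2B genes 24.8%, H2A genes 24.1%, H4 genes 9.01% and H3 genes 8.36%. H2bc4 alone gave 16.4% and H1f2 12.6%.

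Homozygous marrow cells carried more captured histone RNA than wild-type cells in almost every member. The summed level was higher by 0.75 on the log2 scale (95% interval 0.74 to 0.76) in homozygous than in wild-type cells and by 0.26 (0.25 to 0.27) in heterozygous than in wild-type cells. By type, homozygous over wild type was 0.91 for H1, 0.87 for H3, 0.76 for H4, 0.68 for H2A and 0.51 for H2B. Heterozygous over wild type was 0.18 for H1, 0.11 for H3, 0.31 for H4, 0.21 for H2A and 0.45 for H2B. H2B thus had the smallest of the homozygous and the largest of the heterozygous ratios. Most H2B counts came from H2bc4, with 401 of 695 CPM in homozygous, 466 of 665 in heterozygous and 334 of 487 in wild-type cells. The H2B ratios therefore rest largely on this 1 member and do not describe the other H2B genes. Counting members past 1.5-fold among genes with at least 50 UMIs over both libraries, 52 of 62 were higher in homozygous cells, against 9.55% of 14903 genes, and 1 was lower, H4c17, against 7.25%. In heterozygous cells 12 of 62 were higher, against 10.2% of 15270 genes, and 0 were lower, against 15.4%. The median log2 ratio of the members was 1.0 for homozygous over wild type, against 0.06 over all genes, and 0.29 for heterozygous over wild type, against -0.14. With both comparisons sharing the wild-type library, neither is independent of the other.

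By member, the linker histones were counted at 352 CPM in homozygous, 344 in heterozygous and 239 in wild-type cells for H1f2. H1f5 had 359.9 CPM in homozygous, 167 in heterozygous and 152 in wild-type cells. H1f4 had 337 CPM in homozygous, 143 in heterozygous and 180.1 in wild-type cells. All 3 of these were higher in the homozygous than in the wild-type library, but H1f4 was the member with the lowest heterozygous level relative to wild type. H1f3 had 124 CPM in homozygous, 59.2 in heterozygous and 54.9 in wild-type cells. H1f1 had 53.0 CPM in homozygous, 25.6 in heterozygous and 27.7 in wild-type cells. In log2 terms, homozygous over wild type was 1.24 (95% interval 1.21 to 1.28) for H1f5 and 0.56 (95% interval 0.53 to 0.59) for H1f2, while heterozygous over wild type was -0.33 (95% interval -0.37 to -0.29) for H1f4.

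Among H2A genes, H2ac8 had 222 CPM in homozygous, 157 in heterozygous and 146 in wild-type cells. H2ac24 had 160.3 CPM in homozygous, 136 in heterozygous and 128 in wild-type cells. H2ac6 had 102 CPM in homozygous, 107 in heterozygous and 65.9 in wild-type cells. H2ac6 was 1 of 5 members, with H2bc4, H2bc24, H2bc27 and H3c15, that were highest in the heterozygous library. H2ac20 had 58.8 CPM in homozygous, 30.7 in heterozygous and 31.5 in wild-type cells. H2ac4 had 57.0 CPM in homozygous, 33.0 in heterozygous and 26.2 in wild-type cells. H2ac22 had 35.8 CPM in homozygous, 13.9 in heterozygous and 14 in wild-type cells. For H2ac22 the heterozygous and wild-type levels were near each other and the homozygous level stood above both. H2ac25 had 27.5 CPM in homozygous, 24.1 in heterozygous and 20.2 in wild-type cells. H2ac10 had 27.3 CPM in homozygous, 11.2 in heterozygous and 10.2 in wild-type cells. H2ac15 had 27.1 CPM in homozygous, 14.9 in heterozygous and 14.6 in wild-type cells. H2ac10 and H2ac15 again set the homozygous library apart from the other pair. H2ac11 had 14.7 CPM in homozygous, 6.94 in heterozygous and 7.73 in wild-type cells. H2ac18 had 13.2 CPM in homozygous, 8.96 in heterozygous and 6.64 in wild-type cells. H2ac13 had 12.5 CPM in homozygous, 7.04 in heterozygous and 5.64 in wild-type cells. From here on the H2A genes were counted at under 10 CPM in every library. H2ac23 had 7.46 CPM in homozygous, 4.94 in heterozygous and 2.71 in wild-type cells. H2ac12 had 7.09 CPM in homozygous, 3.09 in heterozygous and 2.50 in wild-type cells. H2ac7 had 5.84 CPM in homozygous, 4.95 in heterozygous and 4.14 in wild-type cells. H2ac21, the least counted H2A gene over 200 UMIs, had 2.58 CPM in homozygous, 1.14 in heterozygous and 1.09 in wild-type cells.

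Among H2B genes, H2bc4 had 401 CPM in homozygous, 466 in heterozygous and 334 in wild-type cells. H2bc4 had the smallest homozygous over wild-type ratio of the 60 members, at log2 0.26 (95% interval 0.24 to 0.29). No other H2B gene came near its level. H2bc11 had 53.3 CPM in homozygous, 25.3 in heterozygous and 25.3 in wild-type cells. H2bc6 had 48.9 CPM in homozygous, 43.8 in heterozygous and 34.0 in wild-type cells. H2bc15 had 29.1 CPM in homozygous, 16.9 in heterozygous and 12.7 in wild-type cells. H2bc11 was at the same level in heterozygous and wild-type cells and above it in homozygous cells. H2bc8 had 25.5 CPM in homozygous, 18.1 in heterozygous and 11.4 in wild-type cells. H2bc9 had 20.7 CPM in homozygous, 16.1 in heterozygous and 12.6 in wild-type cells. H2bc3 had 20.6 CPM in homozygous, 13.7 in heterozygous and 8.28 in wild-type cells. These 3 ran in the order homozygous, heterozygous, wild type. H2bc24 had 16.6 CPM in homozygous, 18.1 in heterozygous and 10.8 in wild-type cells. H2bc12 had 16.2 CPM in homozygous, 7.77 in heterozygous and 5.42 in wild-type cells. H2bc14 had 15.6 CPM in homozygous, 8.53 in heterozygous and 8.07 in wild-type cells. H2bc12 had the largest homozygous over wild-type ratio of the 60, at log2 1.58 (95% interval 1.40 to 1.77). H2bc18 had 15.3 CPM in homozygous, 8.26 in heterozygous and 8.40 in wild-type cells. H2bc22 had 10.3 CPM in homozygous, 8.12 in heterozygous and 4.84 in wild-type cells. H2bc7 had 8.83 CPM in homozygous, 4.51 in heterozygous and 4.36 in wild-type cells. The last 3 H2B genes were low throughout. H2bc13 had 5.55 CPM in homozygous, 2.36 in heterozygous and 2.03 in wild-type cells. H2bc27 had 4.10 CPM in homozygous, 4.12 in heterozygous and 2.70 in wild-type cells. H2bc21 had 3.41 CPM in homozygous, 2.72 in heterozygous and 2.32 in wild-type cells.

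Among H3 genes, H3c6 had 73.1 CPM in homozygous, 37.8 in heterozygous and 45.1 in wild-type cells. H3c3 had 58.4 CPM in homozygous, 33.0 in heterozygous and 28.7 in wild-type cells. H3c1 had 40.6 CPM in homozygous, 21.1 in heterozygous and 18.7 in wild-type cells. H3c6 was lower in heterozygous than in wild-type cells, which was the case for 10 of the 60 members. H3c4 had 39.7 CPM in homozygous, 37.7 in heterozygous and 29.3 in wild-type cells. H3c11 had 39.0 CPM in homozygous, 17.9 in heterozygous and 17.1 in wild-type cells. H3c7 had 20.2 CPM in homozygous, 11.7 in heterozygous and 12.1 in wild-type cells. H3c4 differed least between libraries among these H3 genes. H3c2 had 8.87 CPM in homozygous, 4.01 in heterozygous and 3.47 in wild-type cells. H3c8 had 8.01 CPM in homozygous, 4.46 in heterozygous and 3.47 in wild-type cells. H3c14 had 6.20 CPM in homozygous, 4.94 in heterozygous and 3.01 in wild-type cells. The other H3 genes were under 5 CPM in every library. H3c10 had 4.34 CPM in homozygous, 2.14 in heterozygous and 1.89 in wild-type cells. H3c13 had 3.30 CPM in homozygous, 1.82 in heterozygous and 1.71 in wild-type cells. H3c15 had 2.0 CPM in homozygous, 2.37 in heterozygous and 1.12 in wild-type cells.

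Among H4 genes, H4c4 had 128 CPM in homozygous, 90.9 in heterozygous and 85.8 in wild-type cells. H4c9 had 55.1 CPM in homozygous, 51.2 in heterozygous and 31.1 in wild-type cells. H4c8 had 26.4 CPM in homozygous, 16.9 in heterozygous and 13 in wild-type cells. H4c9 was nearly as high in heterozygous as in homozygous cells. H4c3 had 24.3 CPM in homozygous, 12.8 in heterozygous and 12.9 in wild-type cells. H4c16 had 17.2 CPM in homozygous, 16.6 in heterozygous and 11.4 in wild-type cells. H4c14 had 13 CPM in homozygous, 8.67 in heterozygous and 5.53 in wild-type cells. For H4c3 the heterozygous and wild-type levels were alike. H4c18 had 9.65 CPM in homozygous, 4.83 in heterozygous and 3.49 in wild-type cells. H4c1 had 8.48 CPM in homozygous, 5.67 in heterozygous and 4.57 in wild-type cells. H4c11 had 4.51 CPM in homozygous, 2.88 in heterozygous and 1.88 in wild-type cells. The remaining H4 genes over 200 UMIs were under 5 CPM. H4c6 had 4.23 CPM in homozygous, 2.40 in heterozygous and 1.98 in wild-type cells. H4c12 had 3.06 CPM in homozygous, 1.39 in heterozygous and 1.07 in wild-type cells. Of the 6 members under 200 UMIs, H4c2 had 195 UMIs over the 3 libraries and H4c17 had 190, and the other 4 had 0 to 8.

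**Figure D1:**
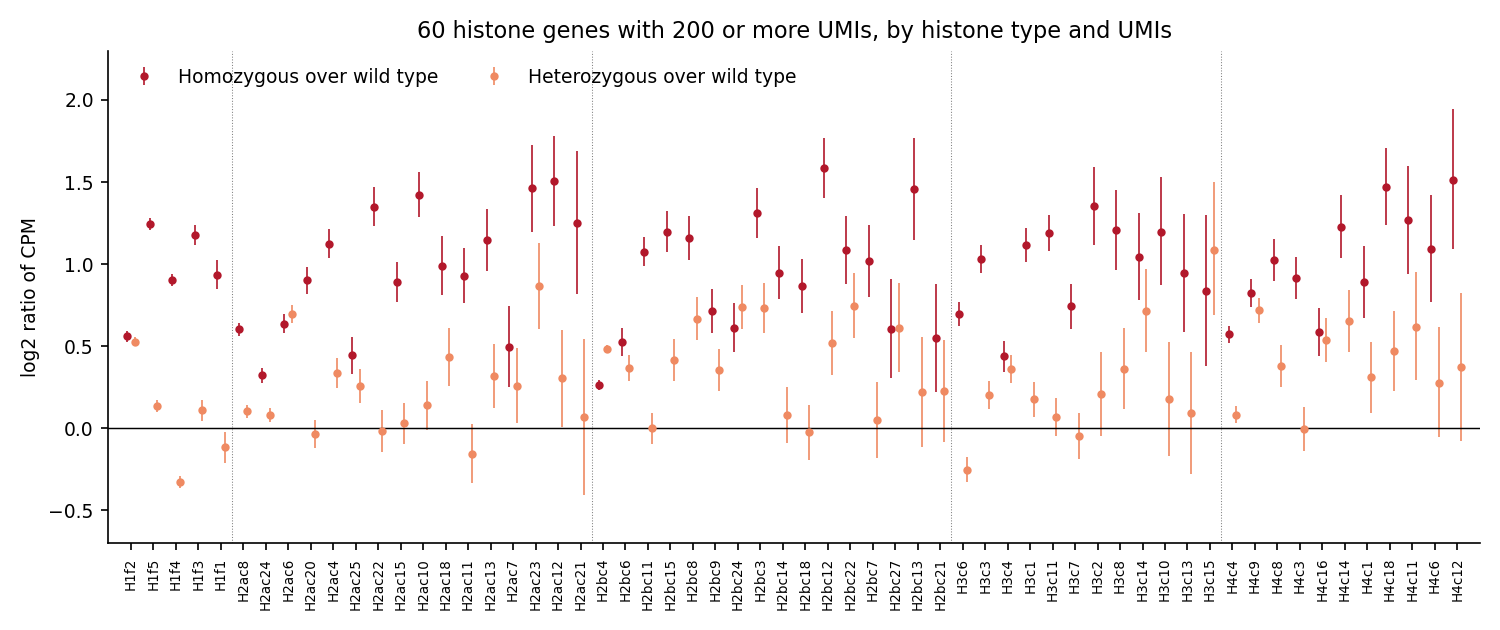
Each point is the log2 ratio of a histone gene's CPM, homozygous over wild type or heterozygous over wild type, for the 60 members with 200 or more UMIs, grouped by type with the most counted member first. Bars are 95% intervals from counting error. All 60 homozygous ratios lie above 0, between 0.26 and 1.58, and 50 of 60 heterozygous ratios do.

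Cell-cycle composition moved with the homozygous difference. Top2a, the topoisomerase that untangles DNA before division and is made in late S phase, G2 and mitosis, stood at 295.7 CPM in homozygous, 153 in heterozygous and 158 in wild-type cells. Cells with a Top2a UMI, after each cell of 2500 or more UMIs was thinned to 2500, made up 29.2% (95% exact interval 27.7 to 30.7) of homozygous, 16.2% (15.4 to 17.1) of heterozygous and 17.97% (16.9 to 19.0) of wild-type cells. In clusters 4 and 7, led by genes of mature neutrophils, which do not divide, that share was 4.95% of 222 homozygous, 4.58% of 2162 heterozygous and 3.19% of 282 wild-type cells, with median UMIs of 6467.5, 6216 and 6423.5, and it is the background against which the others are read. In the dividing clusters 3 and 6 it was 76.2%, 65.5% and 66.6%. Pcna, the clamp of the replicating polymerase, stood at 209 CPM in homozygous, 158 in heterozygous and 179.6 in wild-type cells, and Mcm5, a subunit of the replicative helicase, at 67.7, 36.4 and 47.9 CPM. In a list of 25 S phase genes all 25 were higher in homozygous than in wild-type cells, with a median log2 ratio of 0.47, and 1 of 25 was higher in heterozygous than in wild-type cells, with a median of -0.33. In a list of 18 G2 and M genes the counts were 18 and 4 and the medians 0.85 and -0.07. The heterozygous library thus had lower S phase genes together with a higher histone level than the wild-type library.

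Within sets of cells of 2500 or more UMIs sorted by 3 cell-cycle markers, the genotype differences kept their direction, and the homozygous one was smaller. The sets were not matched for cell type. Cells were sorted, after thinning to 2500 UMIs, into those with a UMI of Mcm5 or Pcna and none of Top2a, those with Mcm5 or Pcna and Top2a, those with Top2a and neither of the others, and those with none of the 3. In cells with Top2a only, the members summed to 4953 CPM in homozygous, 4216 in heterozygous and 3552 in wild-type cells. In cells with Top2a and Mcm5 or Pcna they summed to 5011, 4715 and 3947 CPM in the same order of libraries. Both Top2a-holding sets were thus the highest in every library. In cells with Mcm5 or Pcna only, the sums were 2073, 1952 and 1546 CPM, and in cells with none of the 3 genes 1906, 1650 and 1336 CPM. Homozygous over wild type was 0.34 to 0.51 on the log2 scale over the 4 sets, against 0.64 over all cells of 2500 or more UMIs, and heterozygous over wild type 0.25 to 0.34, against 0.27. In cells of 1000 to under 2500 UMIs, sorted after thinning to 1000, homozygous sums stayed above wild-type sums in all 4 sets. The heterozygous direction was mixed there. The Mcm5 or Pcna-only sets had 12446 CPM in homozygous, 3503 in heterozygous and 4195 in wild-type cells. The Top2a-only sets had 20470, 2940 and 7023 CPM, from 118, 23 and 22 cells. Heterozygous cells thus lay below wild-type cells in both. With Top2a and Mcm5 or Pcna the sums were 17932, 8460 and 5587 CPM, from 67, 8 and 3 cells. With none of the 3 genes they were 10228, 2548 and 2119 CPM, so heterozygous cells lay above wild-type cells in these sets. The part of cell-cycle composition in the genotype difference was not tested beyond these values.

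**Figure D2:**
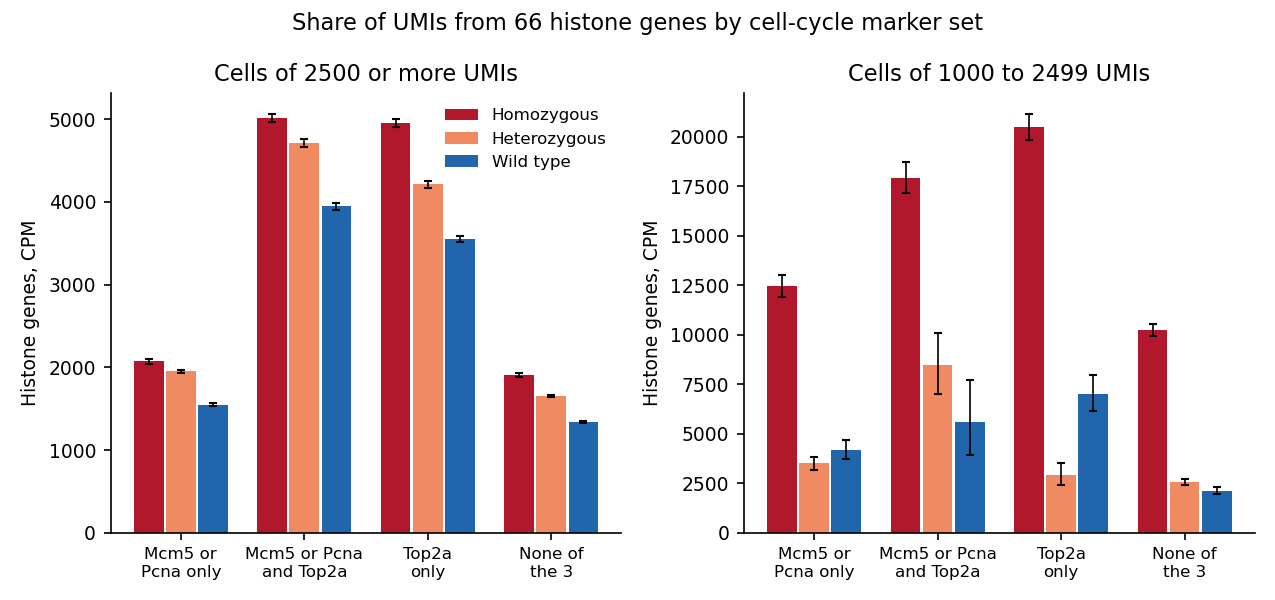
Bars give the summed CPM of the 66 members in 4 cell sets by library, for cells of 2500 or more UMIs (left) and of 1000 to under 2500 UMIs (right, thinned to 1000 UMIs), with 95% intervals from counting error; the vertical scales differ. At 2500 or more UMIs the Top2a-holding sets reach 3552 to 5011 CPM, while in homozygous cells of 1000 to under 2500 UMIs even the set with none of the 3 genes is at 10228 CPM.

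Cells that held Top2a and neither Mcm5 nor Pcna had more RNA of nearly all members than cells with none of the 3 genes. These sets occur in all 3 libraries, so the libraries served as replicates of the cell state, with the library as a block, in edgeR's quasi-likelihood test with Benjamini-Hochberg adjustment over all genes. The p-values thus measure the spread between 3 libraries that also differ in genotype. Of 62 members tested, 58 rose in Top2a-only cells, against 16.4% of 14825 genes, and 0 fell, against 20.2%; 59 had an unadjusted p under 0.05. The median log2 fold was 1.67, against -0.02 over all genes, and the largest was 2.94, for H2ac10.

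H1f5 had 669, 402 and 385 CPM in Top2a-only cells of the homozygous, heterozygous and wild-type libraries, against 108, 59.6 and 56.3 CPM in cells with none of the 3 genes, and rose by 2.64 ± 0.07 (SE), adjusted p = 1.49e-10 by edgeR. H2ac8 had 387, 382 and 314 CPM in Top2a-only cells, against 81.3, 64.9 and 67.4 CPM in cells with none, and rose by 2.27 ± 0.08 (SE), adjusted p = 2.81e-10 by edgeR. H4c4 had 265, 218 and 199.5 CPM, against 57.5, 46.9 and 43.4 CPM, and rose by 2.13 ± 0.07 (SE), adjusted p = 1.97e-10 by edgeR. In each of these members the lowest of the Top2a-only values lay above the highest of the others. H1f4 had 508, 307 and 340.4 CPM, against 169, 82.2 and 114 CPM. H3c6 had 116, 82.2 and 86.8 CPM, against 32.3, 20.1 and 26.9 CPM. H3c3 had 117, 88.9 and 72.4 CPM, against 15.8, 12.7 and 10.2 CPM. Their log2 folds were 1.61, 1.78 and 2.76, all called. H1f2 had 393, 424 and 302 CPM, against 312, 329.6 and 229 CPM, and rose by 0.29 ± 0.07 (SE), adjusted p = 0.00462 by edgeR. H2bc4 had 416, 531 and 410.2 CPM, against 436, 458 and 331 CPM, a log2 fold of 0.07 ± 0.08 (SE), adjusted p = 0.506 by edgeR. H2bc4 was thus between 331 and 531 CPM in both sets, and the sets overlapped. With H2bc4, the members that did not pass were H2ac25 at -0.09, H2bc27 at -0.12 and H3c15 at 0.83.

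Cells with Mcm5 or Pcna but no Top2a had higher levels of some members than cells with none. A UMI of Mcm5 or Pcna marks dividing cells poorly at this depth: 16.2% of homozygous, 19.2% of heterozygous and 16.3% of wild-type cells in clusters 4 and 7 met the same rule, against 25.01%, 23.7% and 28.0% of all cells of 2500 or more UMIs, so the set is not one of dividing cells alone. Of 62 members 28 rose, against 11.7% of 15194 genes, and 3 fell, against 11.9%, with 35 at an unadjusted p under 0.05 and a median log2 fold of 0.34, against -0.02 over all genes. H1f5 had 180.2, 111 and 89.1 CPM in these cells of the homozygous, heterozygous and wild-type libraries, against 108, 59.6 and 56.3 CPM in cells with none of the 3 genes, and rose by 0.73 ± 0.05 (SE), adjusted p = 1.90e-07 by edgeR. H2ac8 had 127, 104 and 107 CPM, against 81.3, 64.9 and 67.4 CPM, and rose by 0.63 ± 0.05 (SE), adjusted p = 7.89e-07. H4c4 had 63.8, 65.8 and 57.1 CPM, against 57.5, 46.9 and 43.4 CPM, and rose by 0.32 ± 0.06 (SE), adjusted p = 0.00183. The 3 that fell were H1f2 with 277, 309 and 211 CPM, against 312, 329.6 and 229 CPM, and a log2 fold of -0.16 ± 0.05 (SE), adjusted p = 0.0213, H2bc4 at -0.14 and H2ac25 at -0.18. H1f2 and H2bc4 were below the level of cells with none in all 3 libraries. The calls depended on the processing, with 20 of the members called by DESeq2, 4 with sets drawn on unthinned counts and 0 with no library block, against 31 here. The count was 17 without the heterozygous library, with 17 higher and 0 lower, and 0 to 1 members fell when any 1 library was left out. Mcm5, Pcna and Top2a defined the sets and were not tested.

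The genes that serve histones moved with the members in part. In Top2a-only cells 9 of 13 histone mRNA makers rose and 1 fell, in Mcm5 or Pcna-only cells 5 rose and 1 fell. Over all genes 16.4% rose and 20.2% fell in Top2a-only cells, and 11.7% and 11.9% in Mcm5 or Pcna-only cells. Slbp, the stem-loop binding protein, rose by 0.41 in Top2a-only and by 0.41 in Mcm5 or Pcna-only cells on the log2 scale, and Casp8ap2, a component of the bodies where histone genes are transcribed, by 0.57 and 0.54. Lsm10, part of the U7 snRNP that cuts histone pre-mRNA, fell by 0.76 in Top2a-only cells. Of 10 histone chaperones, which carry histones to DNA, 7 rose in Top2a-only and 9 in Mcm5 or Pcna-only cells, with Asf1b at log2 2.14 and 1.18 and Chaf1a at 0.96 and 0.93. Of the replication-independent histones tested, 6 of 10 rose and 1 fell in Top2a-only cells, led by Cenpa, the centromere histone, at 1.77, H2ax, the variant phosphorylated at DNA breaks, at 1.62 and H2az2 at 1.39, while 2 rose and 1 fell in Mcm5 or Pcna-only cells, where Cenpa fell by 0.19. All 25 S phase genes rose in both sets, with median folds of 1.08 in Top2a-only and 1.14 in Mcm5 or Pcna-only cells, and 18 of 18 G2 and M genes rose in Top2a-only cells and 8 of 18 in Mcm5 or Pcna-only cells. Mcm5, Pcna and Top2a, which define the sets, are made in the same phases, so these counts follow in part from the sorting. The difference between the sets was not tested.

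The form of the transcript model is set beside these differences as a description only, since the annotation used for the counts holds symbols that GENCODE M21 does not and its models may differ from those read here. Members whose model ended within 100 bases of the stem-loop gave 16.9% of the members' UMIs and had a median log2 fold of 0.47 in Mcm5 or Pcna-only and 1.91 in Top2a-only cells. Members whose model ran further gave 50.5% of the UMIs and had medians of 0.11 and 1.34, and those with no stem-loop in the model gave 32.6% with medians of 0.51 and 2.04. This last group mixes short models, such as that of H4c12, with longer ones such as that of H2bc4. All 3 groups overlapped, since the ranges in Top2a-only cells were 0.60 to 2.85, -0.12 to 2.27 and 0.07 to 2.94. The homozygous over wild-type medians followed the same order, at 1.08, 0.71 and 1.19.

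The homozygous excess was largest in cells with few UMIs. In cells under 2500 UMIs the members summed to 13050 CPM in 799 homozygous, 2751 in 669 heterozygous and 3109 in 301 wild-type cells, while in cells of 2500 or more UMIs they summed to 3063, 2359 and 1961 CPM. Over the 2500 threshold homozygous over wild type was 0.64 and heterozygous over wild type 0.27 on the log2 scale. Under it the first was 2.07 and the second -0.18 (95% interval -0.27 to -0.08), so the heterozygous difference turned round. By bin of UMIs, homozygous cells had 9930 CPM from 500 to under 1000, 14413 up to 1500, 13268 up to 2500, 5574 up to 4000 and 2638 to 3484 from 4000 upwards. Wild-type cells had 3726, 3203, 2939, 2012 and 1478 to 2473 CPM over the same bins. The heterozygous library was flatter, at 2329, 2545, 2996, 2293 and 1723 to 3044 CPM. Homozygous cells from 2500 to under 4000 UMIs thus lay between the shallow cells and those from 4000 UMIs upwards.

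**Figure D3:**
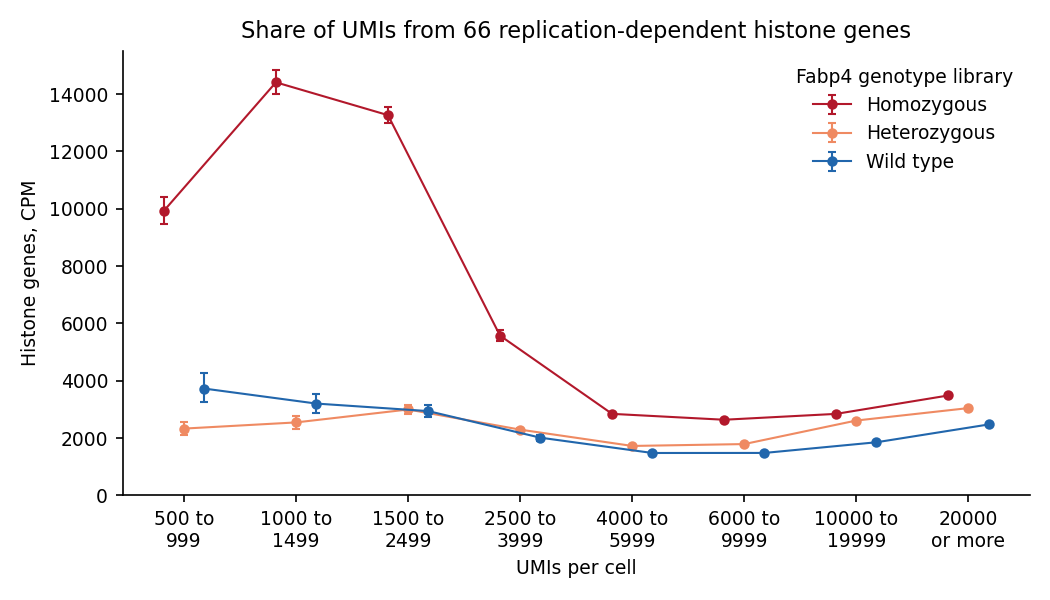
Summed CPM of the 66 members by UMIs per cell (8 bins, low to high) in each library, with 95% intervals from counting error. Homozygous cells under 2500 UMIs reach 9930 to 14413 CPM, while heterozygous and wild-type cells of those bins stay between 2329 and 3726 CPM.

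Per cell the same held. When every cell of 1000 or more UMIs was thinned to 1000, homozygous cells under 2500 UMIs held a median of 12 member UMIs, heterozygous 2 and wild-type 1, with 231, 258 and 75 shallower cells left out in that order. Cells of 2500 or more held a median of 2 in homozygous, 1 in heterozygous and 1 in wild-type cells. Unthinned, 49.7% of homozygous cells under 2500 UMIs gave over 1% of their UMIs to the members, against 4.78% of heterozygous and 8.31% of wild-type cells. Cells in which no cell-cycle marker was counted also differed between libraries: among cells of 1000 to under 2500 UMIs with none of Mcm5, Pcna and Top2a after thinning to 1000, the sums were 10228 CPM in homozygous, 2548 in heterozygous and 2119 in wild-type cells. At 1000 UMIs a cell that makes these RNAs can hold no UMI of them, so this set may include dividing cells.

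Most members took part, and a few highly counted ones did not. Of the 60 members, 56 in homozygous cells had an interval for cells under over cells of 2500 or more UMIs that lay above 0, and 46 were more than 4-fold higher, with a median log2 ratio of 2.89. In heterozygous cells 28 of 60 lay above 0, 8 below, and the median was 0.69. In wild-type cells 29 of the 58 with a value lay above 0, 2 below, and the median was 1.12. H1f4 had 2049 CPM under and 295 CPM over 2500 UMIs in homozygous cells, 239 and 142 in heterozygous cells and 433 and 178 in wild-type cells. H1f3 had 1041 and 102 CPM in homozygous, 105 and 58.7 in heterozygous and 159 and 54.2 in wild-type cells. H1f2 had 1453 and 325 CPM in homozygous, 454 and 343 in heterozygous and 339 and 238 in wild-type cells. These 3 linker histones were higher under 2500 UMIs in every library, and by the most in the homozygous one. H2bc4 had 499.9 and 398 CPM in homozygous, 545 and 465 in heterozygous and 379 and 334 in wild-type cells. H2ac8 had 191 and 223 CPM in homozygous, 45.1 and 159 in heterozygous and 85.3 and 147 in wild-type cells. H1f5 had 697 and 352 CPM in homozygous, 53.0 and 168 in heterozygous and 106 and 152 in wild-type cells. H2bc4 was thus little changed, H2ac8 lower in all 3 libraries, and H1f5 higher in the homozygous library only. H4c6 showed the largest homozygous ratio, with 68.2 CPM under and 2.67 CPM over 2500 UMIs, and H2bc27 the lowest, with 1.82 and 4.16 CPM. The H2bc27 value under 2500 UMIs rests on very few UMIs, so its ratio is imprecise.

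Tested over the 3 libraries by edgeR with the library as a block, 44 of 62 members rose in cells under 2500 UMIs, against 10.5% of 15980 genes, and 6 fell, against 19.1%. Unadjusted p was under 0.05 for 57, and the median log2 fold was 1.37, against -0.12 over all genes. H1f3 rose by 1.56 ± 0.18 (SE), adjusted p = 3.06e-16, H1f4 by 1.20 ± 0.17 (SE), adjusted p = 3.84e-11, H4c6 by 2.88 ± 0.45 (SE), adjusted p = 2.07e-09 and H2ac12 by 2.63 ± 0.39 (SE), adjusted p = 2.71e-10. The 6 that fell were H2ac8 at -1.30 ± 0.18 (SE), adjusted p = 4.01e-11, H2ac4 at -0.93, H1f5 at -0.69, H4c4 at -0.54, H2ac25 at -0.75 and the lowly counted H2bc27 at -2.11 ± 0.83 (SE). H1f5, H4c4 and H2ac4 fell in the fit although their homozygous values did not. Without the homozygous library 23 members were called, 15 higher and 8 lower, with a median of 0.52. The number called lower depended on the processing. It was 3 with DESeq2 scaling in edgeR, 1 with DESeq2, 1 without the heterozygous and 3 without the wild-type library. Without the cells of the low-UMI cluster described next, an alternative chosen after seeing the data, 14 were called, 3 higher and 11 lower, with a median of -0.35. In the same fit 0 of 25 S phase genes rose and 18 fell, 1 of 18 G2 and M genes rose and 11 fell, and of the replication-independent histones 0 of 11 rose and 7 fell, with H2az2 at -1.89 and H3f3a at -1.48. The homozygous library differed from that fit. Its G2 and M genes summed to 2597 CPM under and 1697 CPM over 2500 UMIs, against 489 and 936 CPM in heterozygous and 813 and 974 CPM in wild-type cells. Its S phase genes summed to 1830 and 1742 CPM, against 668 and 1117 in heterozygous and 979 and 1385 in wild-type cells. Top2a stood at 444 and 292 CPM in homozygous cells, and Mki67, a marker of dividing cells and the G2 and M gene that rose in the fit, at 1082 and 262 CPM. Mki67 had 125 and 139 CPM in heterozygous and 245 and 139.8 CPM in wild-type cells. Summed, the G2 and M genes were thus higher in low-UMI cells of the homozygous library and lower in those of the other libraries. Mki67 gave 1082 of the 2597 CPM, and single G2 and M genes went both ways in homozygous cells. Ube2c had 55.4 CPM under and 201 CPM over 2500 UMIs there, and Birc5 56.4 and 147 CPM. The S phase sum was only slightly higher in homozygous low-UMI cells, and lower in those of the other libraries. Mki67 was higher in low-UMI cells of the homozygous and wild-type libraries. The part of these genes in the histone difference was not tested.

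**Figure D4:**
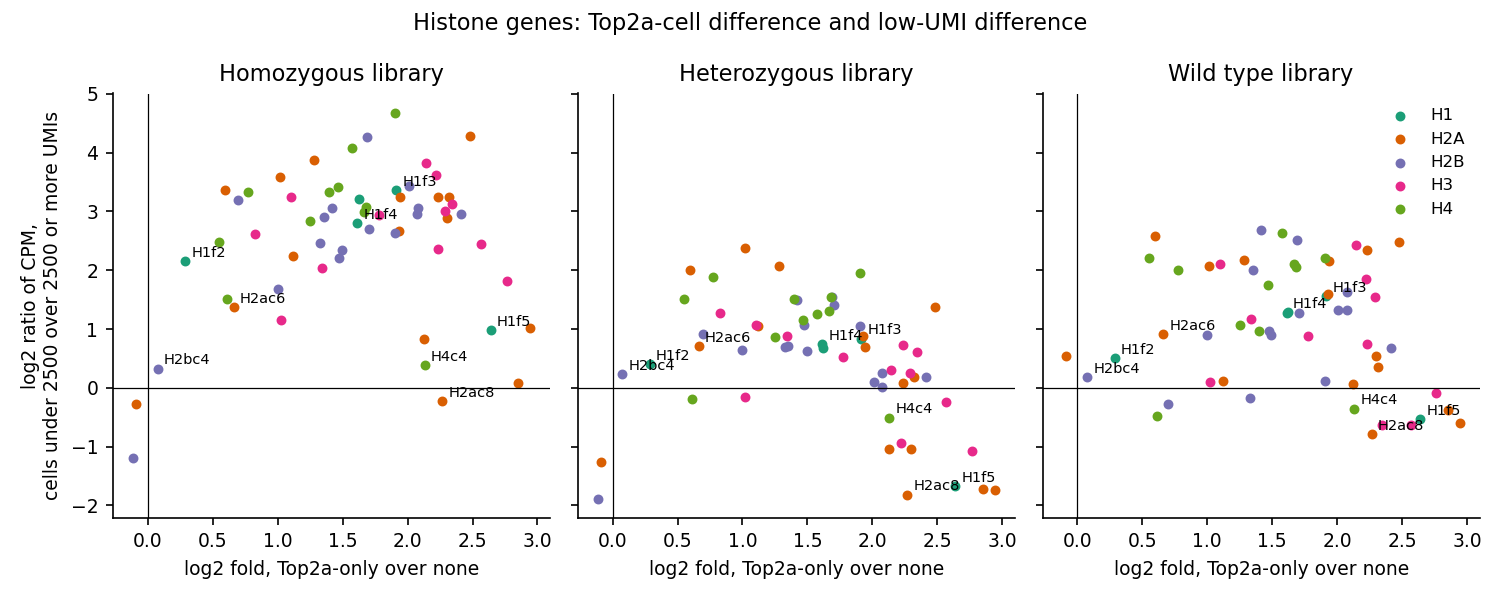
Each point is 1 of the 60 members, coloured by type. The horizontal axis is the log2 fold in Top2a-only over none cells from edgeR, the same in each panel, and the vertical axis the log2 ratio of CPM in cells under over cells of 2500 or more UMIs in that library. H2ac8, H4c4 and H1f5 are high on the horizontal axis and low on the vertical one, and H1f2, at 0.29 on the horizontal axis, is at 2.16 on the vertical one in the homozygous library, under the members' median of 2.89.

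Most of the low-UMI excess sat in 1 cluster. Clustering of all kept cells, in which the members were left out of the variable genes, gave 17 clusters. Cluster 9, led by Zfp791, Ccnb1ip1 and Lars2, had the lowest median UMIs, 1199.5, and a median mitochondrial share of 7.10%, the highest of the clusters with 100 or more cells; it is left unnamed. It held 677 homozygous, 284 heterozygous and 127 wild-type cells, with 15592, 5208 and 5843 CPM of histone RNA. Among cells under 2500 UMIs, those in this cluster had 16557 CPM in 613 homozygous, 4559 in 264 heterozygous and 6488 in 118 wild-type cells. Those outside it had 3326 CPM in 186 homozygous, 1934 in 405 heterozygous and 1539 in 183 wild-type cells, against 3063, 2359 and 1961 CPM in cells of 2500 or more UMIs. Outside the cluster the low-UMI cells were thus slightly above the deep cells in the homozygous library and below them in the other libraries. Without cluster 9, homozygous over wild type over all kept cells was 0.62 on the log2 scale and heterozygous over wild type 0.26.

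Measures of RNA quality moved with the low-UMI cells. The median mitochondrial share was 7.08% under and 2.53% over 2500 UMIs in homozygous, 3.81% and 1.91% in heterozygous and 6.76% and 2.84% in wild-type cells. Malat1, a nuclear non-coding RNA, had 26190 CPM under and 11035 over 2500 UMIs in homozygous, 32155 and 13309 in heterozygous and 37177 and 12331 in wild-type cells. Actb, the cytoplasmic actin mRNA, had 3230 and 6870.0 CPM in homozygous, 4976 and 7376 in heterozygous and 4103 and 5956 in wild-type cells. Lars2 had 6604 and 632 CPM in homozygous, 1168 and 267 in heterozygous and 1540 and 233 in wild-type cells. These genes were chosen after their values were seen. Malat1 was raised in all 3 libraries, and Lars2 by the most in the homozygous library, as the histone genes were. Their part in the histone difference was not tested.

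Among the other clusters the histone level was highest in the dividing ones. The next highest were cluster 3, led by Pclaf, Ube2c and Camp, with 5565 CPM in homozygous, 4829 in heterozygous and 4293 in wild-type cells, and cluster 6, led by Top2a and Birc5, with 4711, 4649 and 3621 CPM. In clusters 4 and 7, led by Stfa3 and Retnlg, genes of mature neutrophils, the homozygous cells had 1003 and 1126 CPM, the heterozygous cells 1161 and 1271 CPM and the wild-type cells 545 and 603 CPM. In cluster 8, led by Mpo, Ctsg and Elane, the granule enzymes of early granulocyte precursors, the order was reversed, at 1831, 1838 and 2242 CPM. Of the 15 clusters with 100 or more cells, 13 were higher in homozygous and 12 in heterozygous than in wild-type cells, with median log2 ratios of 0.70 and 0.55. Cluster sizes differed between libraries, so these are values for cells that cluster together and not for a fixed cell type.

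**Figure D5:**
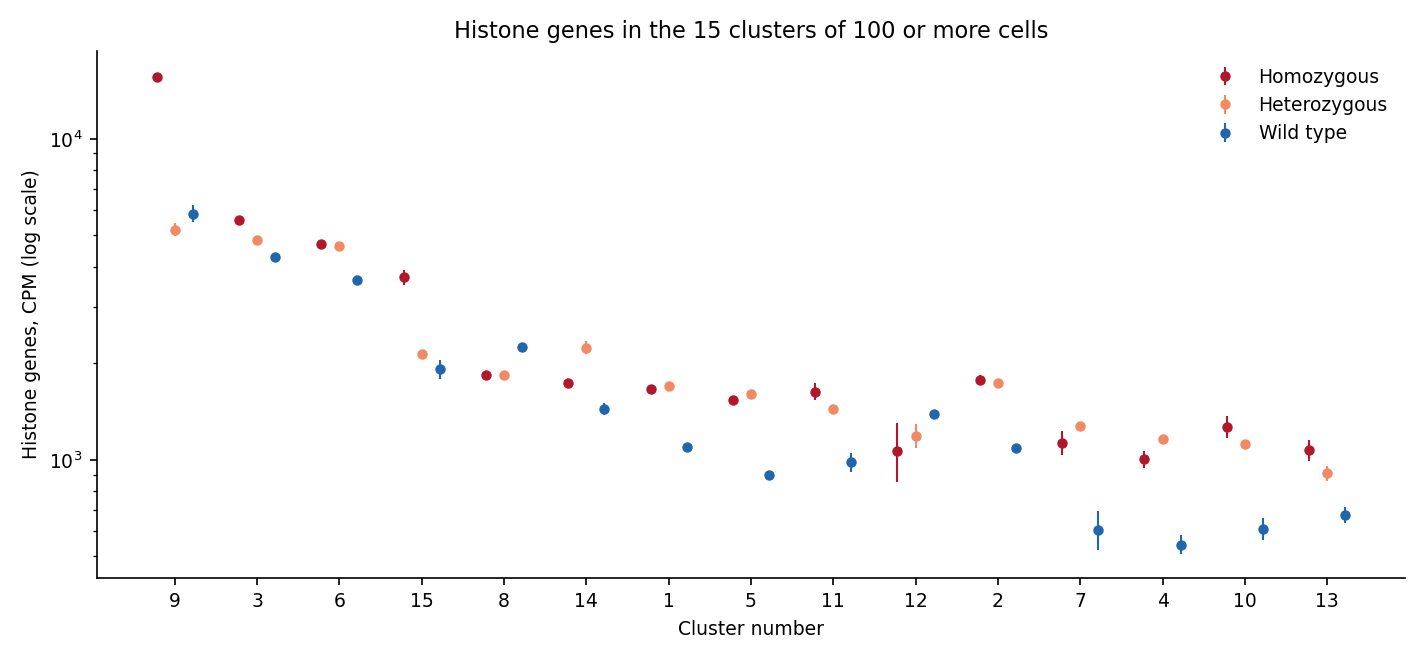
Summed CPM of the 66 members (log scale) in each library for the 15 clusters of 100 or more cells, ordered by their level over all libraries and labelled with the cluster number, with 95% intervals from counting error. Cluster 9 stands out at 15592 CPM in homozygous cells, and clusters 8 and 12 are the ones with the wild-type point on top of both others.

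Single members differed in where they were counted. H2bc4 varied least, from 239 CPM in cluster 13 to 568 CPM in cluster 9 among clusters of 100 or more cells, and H1f2 from 218 CPM in cluster 11 to 1349 CPM in cluster 9. H1f5 ran from 13.4 CPM in cluster 13 to 625 CPM in cluster 6, the dividing cluster led by Top2a, and H2ac8 from 11.9 CPM in cluster 7 to 452 CPM in cluster 3. H1f4 had its highest level, 1863 CPM, in cluster 9 and its lowest, 33.8 CPM, in cluster 4. H2ac25 and H2bc27 were unlike the others in having their highest levels, 45.3 and 35.3 CPM, in cluster 11, which was led by Igkc, Cd74 and H2-Aa. Cluster 9 held the highest level of 56 of the 64 members with any UMI, and for H1f5, H2ac8, H2ac24, H4c4 and H2ac4 a dividing cluster, 3 or 6, was on top.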

How the data were processed

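Single cells of mouse bone marrow were profiled in 3 libraries, 1 per Fabp4 genotype, with a Chromium 3′ v3 kit, per the labels' protocols. The deposited files hold raw UMI counts per gene and barcode, made with Cell Ranger 8.0.1 per the file headers; build mm10 and STAR are named per the submitters' processing notes. Gene symbols and barcodes, which are text and carry no unit, were used as deposited. No doublet removal is recorded in the sources used here, and none was made in the main results; Scrublet removal was an alternative (280 homozygous, 682 heterozygous and 423 wild-type cells). Cells were kept from 500 UMIs, 200 genes and under 10% mitochondrial UMIs. CPM intervals are exact Poisson, ratio intervals exact conditional and share intervals Clopper-Pearson, all at 95% and for counting error only. Cells were thinned at random to 2500 UMIs for the cell-cycle sets and to 1000 UMIs for shallower cells. Summed counts were tested with edgeR 4.0.16 (quasi-likelihood, TMM, genes of 50 or more UMIs over the 6 sums, adjusted p under 0.05), with DESeq2 1.42.0 as an alternative. Only the edgeR fit was also run on simulated data. Clusters came from scanpy 1.11.5 (2000 variable genes without the members, 30 components, 15 neighbours, Leiden resolution 1). The libraries act as blocks in these tests because both cell sets come from each one. Every member with 200 or more UMIs is named, others by count or where they passed a test, and at most 4 genes per other list by lowest adjusted p; Malat1, Actb, Lars2 and Mki67 fall outside this rule. The members, lists and tests were chosen with earlier results of these data known. Alternatives were another scaling, DESeq2, no filter on low counts, no library block, each library left out, other cell filters and other UMI thresholds.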

Additional observations from a re-analysis of the deposited data

Results flagged for a closer look

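Barcodes left out for a mitochondrial share of 10% or more held more histone RNA than kept cells in every library. Their members summed to 8961 CPM in 3797 homozygous, 5114 in 2760 heterozygous and 4894 in 3828 wild-type barcodes, and the homozygous and heterozygous sums lay above the wild-type interval of 4851 to 4938 CPM. Against kept cells of 2500 or more UMIs, 56 of 60 members in the homozygous, 55 in the heterozygous and 56 in the wild-type barcodes had an interval above 0, with median log2 ratios of 2.26, 1.97 and 1.90. Across the 60 members the ratio of homozygous cells under over cells of 2500 or more UMIs ran with the ratio of left-out over deep wild-type barcodes (Spearman's rho 0.88, Pearson's r 0.92, as a description across genes, which are not independent). No sums are shared between those ratios, but all come from 1 kit and 1 annotation.

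H1f5 was higher in cells under than in cells of 2500 or more UMIs in the homozygous library, by 0.99 on the log2 scale, and lower in the heterozygous and wild-type libraries, with log2 ratios of -1.67 and -0.53. It was singled out because the libraries moved in opposite directions beyond counting error; the difference was not tested. Clusters 8 and 12 stood apart from the other clusters of 100 or more cells because histone RNA was lower in homozygous than in wild-type cells there. Cluster 8, led by Mpo, had a log2 ratio of -0.29 and cluster 12, led by Fn1 and Saa3, of -0.38, with 16 homozygous cells in cluster 12. Those differences between clusters were not tested either.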

How the results depend on the processing

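Homozygous over wild type, 0.75 on the log2 scale, was 0.82 with no cell filter, 0.69 at 1000 or more UMIs and under 5% mitochondrial UMIs, 0.88 at under 25%, 1.38 with equal weight per cell, 0.72 without mitochondrial, ribosomal protein and haemoglobin UMIs in the denominator, 0.83 without H2bc4, 2.07 in cells under and 0.64 in cells of 2500 or more UMIs, and 0.62 without cluster 9 (chosen after seeing the data). Heterozygous over wild type, 0.26, was 0.12, 0.34, 0.20, 0.23, 0.16 and 0.22 under the first 6 of these, 0.28 without doublets, and reversed to -0.18 in cells under 2500 UMIs. No paired analysis was possible for these ratios because there is 1 library per genotype. The 58 members called in Top2a-only cells were within 1.5 times under every alternative run: 41 with no library block, and 54 to 57 with 1 library left out. For Mcm5 or Pcna-only cells, 31 members became 20 with DESeq2, 0 with no library block, 4 with sets drawn on unthinned counts, and 17 to 24 with 1 library left out. For cells under 2500 UMIs, 50 became 19 with no library block, 27 with a threshold of 4000 UMIs, 31 at under 5% mitochondrial UMIs, 14 without cluster 9 and 23 to 49 with 1 library left out. The causes of these changes were not tested. Depth limits the members under 200 UMIs, of which H4c17 alone is given a ratio, and the cells under 1000 UMIs, which the thinned sets leave out.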

Other observations

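H4c17 gave 1 UMI in the 4318 kept homozygous cells, against 114 UMIs in heterozygous and 75 in wild-type cells. Over all barcodes it gave 2, 187 and 132 UMIs. Another lowly counted H4 member ran the other way, in that H4c18 had 9.65 CPM in homozygous, 4.83 in heterozygous and 3.49 in wild-type cells. On the log2 scale H4c17 was -5.69 (95% interval -11.01 to -3.16) in homozygous over wild-type cells, the 1 member of 62 below 0. Reads of near-identical H4 copies can be assigned to either copy or dropped, and whether that differed between libraries was not tested.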
